A study of Mus musculus with 6 samples.

Results

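The genes described here are 10 enzymes and helper proteins of eicosanoid synthesis in mouse cells. They are the phospholipase gene Pla2g4a, the lipoxygenase genes Alox5, Alox8, Alox12 and Alox15, the lipoxygenase-activating protein gene Alox5ap, the cyclooxygenase genes Ptgs1 and Ptgs2, the prostaglandin E synthase gene Ptges and the prostaglandin dehydrogenase gene Hpgd. They were found by symbol, and all 10 were among the 17912 genes of the deposited table. The set was chosen by the ratio of shEXOSC2 to control measured in these same 6 libraries, so that ratio is given for the 10 genes as a description, with no test. RNA came from cells given as embryonic stem cells. The 3 control libraries (1, 2 and 3) carry the genotype WT, and the 3 others (clones 5, 6 and 7) carry the genotype EXOSC2_KD, each being 1 clone with a short hairpin RNA against Exosc2, a subunit of the RNA exosome. No treatment, time or strain is given for either group. The labels do not say whether the controls carried a hairpin or whether each library is a culture of its own, so every p-value measures only the spread between these libraries, which may be technical.

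Eicosanoids are signalling lipids made from arachidonic acid, a fatty acid stored in membrane phospholipids. A phospholipase frees it. Cyclooxygenases convert it to prostaglandin H, which terminal synthases turn into prostaglandins, prostacyclin or thromboxane, and lipoxygenases oxidise it to hydroxy fatty acids and leukotrienes. Lipoxygenases are best known from leukocytes, platelets and surface epithelia, and a dehydrogenase ends prostaglandin signalling.

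Levels are read counts scaled by the authors with 1 factor per library, and means are given ± SD with n = 3 libraries per group. Log2 fold changes compare clones with controls after 1 was added to each scaled count, and carry the SE from limma. The added 1 understates the change of low genes. The libraries held 21107761 to 26494985 recovered reads. Exosc2 measured 2295 ± 296 in controls and 1038 ± 86.6 in clones (log2 fold change -1.14 ± 0.13, limma adjusted p = 5.1e-05). With 3 libraries a group, the exact permutation p (two-sided) was 0.1, and no smaller one is possible. Of 10 embryonic stem cell markers, 9 were lower and 1 was higher in the clones. The one that was higher, the pluripotency factor gene Pou5f1, measured 21045 ± 4721 in controls and 91114 ± 2227 in clones, whereas Tdgf1 measured 24959 ± 1913 in controls and 1.94 ± 0.892 in clones and Esrrb 16546 ± 736 in controls and 2.27 ± 0.432 in clones. The cell type label was thus not matched by most of these markers in the clones. In bulk RNA, fewer cells of a kind and less RNA per cell cannot be told apart.

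Alox15, which encodes the leukocyte-type lipoxygenase, was low in controls and among the most abundant transcripts of the clones. It measured 36.0, 29.2 and 61.3 in controls 1, 2 and 3, and 53890.5, 54679.6 and 67690.5 in clones 5, 6 and 7. Every clone lay far above every control. The means were 42.1 ± 16.9 in controls and 58754 ± 7749.7 in clones, a ratio of 1394 and a log2 fold change of 10.47 ± 0.24. Alox15 (ENSMUSG00000018924.6) is on chromosome 11, minus strand, positions 70344152 to 70352031 of GRCm38. It took 0.221%, 0.219% and 0.277% of all reads in clones 5, 6 and 7. Per kilobase of exon its level was 17.2 in controls and 23942 in clones, which ranked 12393 and 20 among the 17860 genes with an annotated length.

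Alox8, which encodes a lipoxygenase known from mouse epidermis, had the same pattern from an even lower start. It measured 4.74, 3.24 and 8.04 in controls 1, 2 and 3, and 14375, 13872 and 15966 in clones 5, 6 and 7. The controls held 5, 3 and 8 reads, and the clones lay close to one another. The means were 5.34 ± 2.45 in controls and 14738 ± 1093 in clones, a ratio of 2762 and a log2 fold change of 11.25 ± 0.26, which was 12.48 with quantile normalization and 10.50 with a pseudocount of 5. Per kilobase its level was 1.50 in controls and 4141 in clones. By log2 fold change Alox8 stood at place 9 and Alox15 at place 11 from the top of the 15179 genes tested. Alox8 (ENSMUSG00000020891.11) is on chromosome 11, minus strand, positions 69183932 to 69197843, and 1.79% of its 50-base stretches occur in other genes.

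Alox12, which encodes the platelet-type lipoxygenase, had the opposite pattern. It measured 116, 97.2 and 103 in controls 1, 2 and 3, and 2.98, 5.14 and 2.77 in clones 5, 6 and 7. The controls were close to one another and the clones were all near the level of single reads. The means were 105 ± 9.32 in controls and 3.63 ± 1.31 in clones, so the controls were 29.0 times higher (log2 fold change -4.55 ± 0.30, or -3.30 with quantile normalization). Alox12 (ENSMUSG00000000320.10) is on chromosome 11, minus strand, positions 70241457 to 70255353.

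The gene of the enzyme that begins leukotriene synthesis and the gene of its helper differed in direction. Alox5, the enzyme, measured 25.6, 38.9 and 57.3 in controls 1, 2 and 3, and 3.98, 3.08 and 2.77 in clones 5, 6 and 7. All 3 clones were below all 3 controls. The means were 40.6 ± 15.9 in controls and 3.28 ± 0.629 in clones, so the controls were 12.4 times higher (log2 fold change -3.22 ± 0.36, which shrank to -2.40 with a pseudocount of 5 and to -1.68 with quantile normalization). Alox5ap encodes the membrane protein that presents arachidonic acid to that enzyme, and it measured 26.5, 35.6 and 14.1 in controls 1, 2 and 3, and 154, 223 and 139 in clones 5, 6 and 7. All 3 clones were above all 3 controls. The means were 25.4 ± 10.8 in controls and 172 ± 44.6 in clones, a ratio of 6.78 and a log2 fold change of 2.78 ± 0.36. Alox5 (ENSMUSG00000025701.12) is on chromosome 6, minus strand, positions 116410077 to 116461178. Alox5ap (ENSMUSG00000060063.9) is on chromosome 5, plus strand, positions 149264767 to 149288153, and shares 189 exon bases with the antisense gene Gm19719. No source used here states whether reads were counted by strand.

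**Figure D1:**
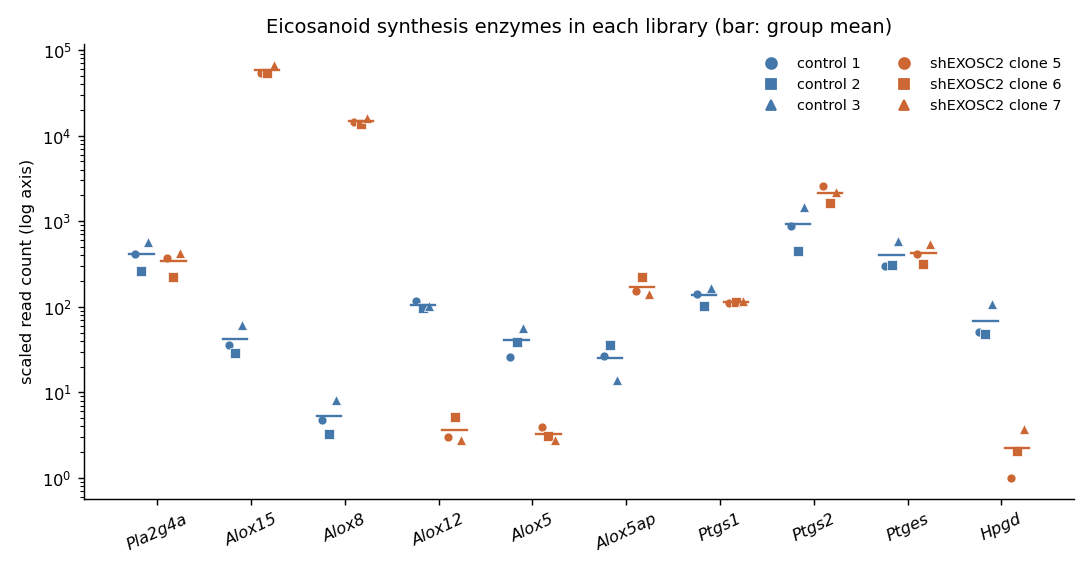
Scaled read counts (log axis) of the 10 eicosanoid synthesis genes, with 1 point per library and the group means marked, for controls 1, 2 and 3 and shEXOSC2 clones 5, 6 and 7. Alox15 and Alox8 separate the groups most widely, whereas the points of Pla2g4a, Ptgs1 and Ptges overlap.

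Pla2g4a, which encodes the cytosolic phospholipase that frees arachidonic acid, overlapped between groups. It measured 419, 262 and 573 in controls 1, 2 and 3, and 369, 223 and 429.9 in clones 5, 6 and 7. Clone 6 was the lowest library and control 3 the highest. The means were 418 ± 155 in controls and 341 ± 106 in clones and the log2 fold change was -0.28 ± 0.32, or 0.31 after subtracting each chromosome's median. Pla2g4a (ENSMUSG00000056220.14) is on chromosome 1, minus strand, positions 149829618 to 149961290.

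The cyclooxygenase genes, whose enzymes carry out the same reaction, differed from each other. Ptgs2, the inducible form, measured 875, 455 and 1451 in controls 1, 2 and 3, and 2566, 1621 and 2203 in clones 5, 6 and 7. The groups did not overlap, but control 3 was close to clone 6. The means were 927 ± 500.4 in controls and 2130.0 ± 476 in clones, a ratio of 2.30 and a log2 fold change of 1.33 ± 0.37, which was 1.73 without control 3 and 0.89 without control 2. Ptgs1, the constitutive form, measured 143, 103 and 167 in controls 1, 2 and 3, and 110.4, 114 and 115 in clones 5, 6 and 7. The clones lay within the range of the controls. The means were 137 ± 32.4 in controls and 113 ± 2.54 in clones and the log2 fold change was -0.25 ± 0.22, or 0.09 with quantile normalization. The ratio of Ptgs2 to Ptgs1 in scaled counts was 6.12, 4.43 and 8.70 in controls 1, 2 and 3 and 23.2, 14.2 and 19.1 in clones 5, 6 and 7. Ptgs2 (ENSMUSG00000032487.8) is on chromosome 1, plus strand, positions 150100031 to 150108227. Ptgs1 (ENSMUSG00000047250.13) is on chromosome 2, plus strand, positions 36230426 to 36252272, and shares 148 exon bases with the antisense gene Gm43621.

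Ptges, which encodes the inducible microsomal prostaglandin E synthase, did not separate the groups. It measured 301, 307 and 594 in controls 1, 2 and 3, and 419, 321 and 536 in clones 5, 6 and 7. The ranges overlapped. The means were 400.5 ± 167 in controls and 425 ± 108 in clones and the log2 fold change was 0.13 ± 0.29, between -0.05 and 0.45 with 1 library left out. Ptges (ENSMUSG00000050737.13) is on chromosome 2, minus strand, positions 30889471 to 30929863.

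Hpgd, which encodes the dehydrogenase that inactivates prostaglandins, was almost undetected in the clones. It measured 50.2, 47.5 and 108 in controls 1, 2 and 3, and 0.995, 2.05 and 3.69 in clones 5, 6 and 7. The clones held 1, 2 and 4 reads, below every control. The means were 68.7 ± 34.4 in controls and 2.25 ± 1.36 in clones, so the controls were 30.6 times higher (log2 fold change -4.41 ± 0.45, or -2.88 with quantile normalization). Hpgd (ENSMUSG00000031613.8) is on chromosome 8, plus strand, positions 56294585 to 56321043.

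Of the 10 genes, 4 were called higher (Alox15, Alox8, Alox5ap and Ptgs2) and 3 lower (Alox12, Alox5 and Hpgd) by limma at an adjusted p under 0.05, and these 7 were also the ones whose groups did not overlap. Over all 15179 genes tested, 35.2% were called higher and 38.3% lower, and 36.7% and 40.6% did not overlap in the same directions. Because the ratio chose the genes, nothing is read from these counts. Alox8, Alox12, Alox5 and Hpgd had a mean under 10 in one group and passed the filter on low values only through the other. The median log2 fold change was -0.06 over the 10 genes and -0.07 over all genes tested.

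The make-up of the set changed with Alox15. Alox15 gave 1.80%, 2.12% and 1.95% of the 10 genes' summed scaled count in controls 1, 2 and 3, and 75.0%, 76.9% and 77.7% in clones 5, 6 and 7. Per kilobase of exon, the order in controls began with Ptgs2 (202), Ptges (102) and Pla2g4a (65.4) and ended with Alox8. In the clones it began with Alox15 and Alox8, followed by Ptgs2 (465), and ended with Hpgd (1.33), Alox12 (0.889) and Alox5 (0.798).

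**Figure D2:**
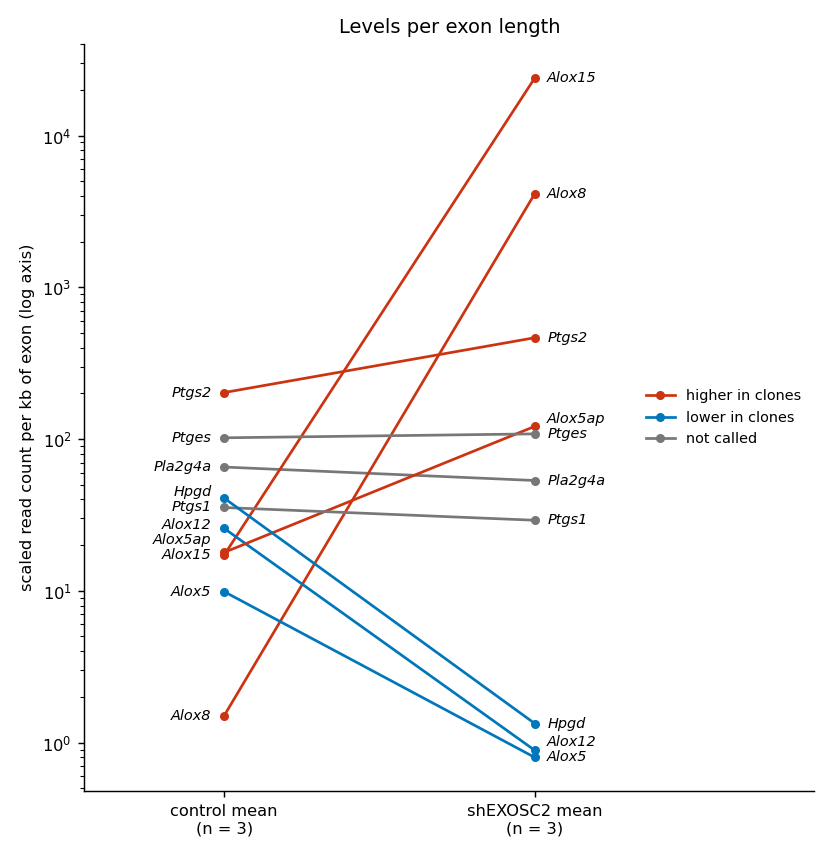
Scaled count per kilobase of exon (log axis) of the 10 genes in controls and shEXOSC2 clones. Alox8 is the lowest gene in controls and the one after Alox15 in clones.

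The controls were not alike. Control 3 held the highest control value for 8 of the 10 genes, the exceptions being Alox12 and Alox5ap, and control 2 the lowest for 7. Over all genes tested these shares were 40.1% and 39.0%. Control 3 over the mean of controls 1 and 2 was 2.22 for Hpgd, 2.18 for Ptgs2, 1.95 for Ptges, 0.973 for Alox12 and 0.452 for Alox5ap. Control 3 was thus nearer to the clones for Ptgs2 and farther from them for Hpgd. Among the controls, summed squamous keratinocyte markers were highest in control 3, at 89.0, 100.4 and 756 in controls 1, 2 and 3 and 4138, 3619 and 4994 in clones 5, 6 and 7. Different genes carried the sums: Sbsn (557) and Krt14 (179) gave most of it in control 3, where Krt6a had no read, and Krt6a (3054 to 4321) gave most of it in the clones. Sbsn was higher in control 3 than in any clone (174 to 210.3). Summed macrophage markers were also highest there among the controls, at 683, 828 and 1311 in controls 1, 2 and 3 and 2208, 2618 and 2354 in clones 5, 6 and 7. Of these, Csf1r measured 9.47, 8.64 and 205 in controls 1, 2 and 3 and at most 28.6 in a clone. Summed platelet markers were 231, 232 and 566 in controls 1, 2 and 3, and 485, 409 and 465 in clones 5, 6 and 7. The mast cell (1643, 1560 and 2222) and neutrophil (7.58, 7.56 and 13.1) sums of controls 1, 2 and 3 also peaked in control 3. There the mast cell sum was Kit alone, as Mcpt1 and Hdc had no read. The neutrophil sum was at the level of single reads. Of its genes, Ltf (6.03) and Ly6g (5.02) were highest in control 3 among the controls, and S100a8 (2.01) and S100a9 (no read) lowest. The sums of embryonic stem cell, pan-leukocyte, tuft cell and fibroblast markers did not peak in control 3. The part of all these markers in the levels of the 10 genes was not tested. Without control 3, each of the 7 calls was still made in the same direction. As the ratio in these libraries chose the genes, nothing is read from that.

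**Figure D3:**
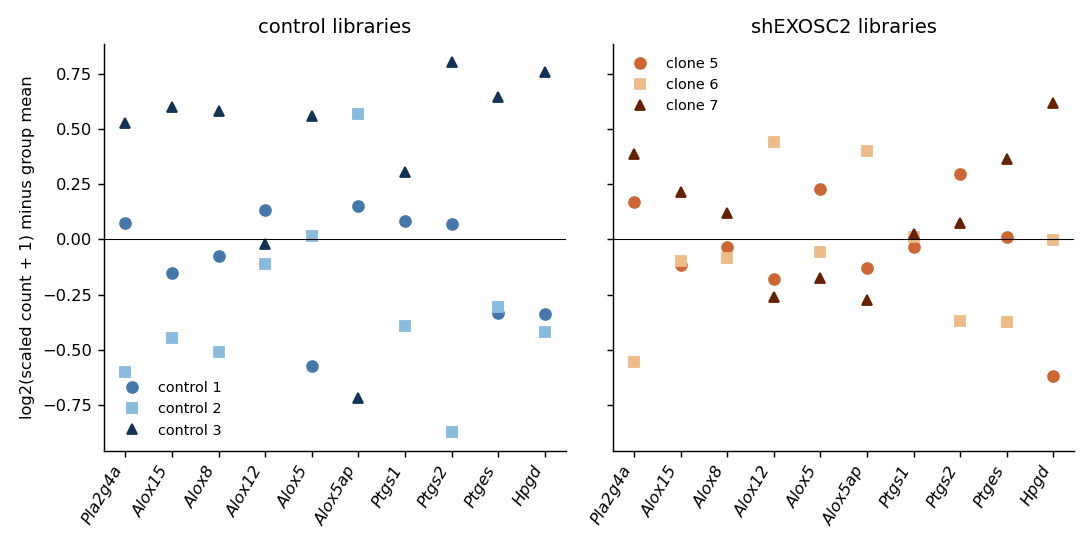
Log2 deviation of each library from its own group's mean for the 10 genes. Control 3 is the highest control for 8 genes and the lowest for Alox5ap.

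Several of the genes are neighbours. Only protein-coding genes of the deposited table were counted between them. Pla2g4a and Ptgs2 lie 139 kb apart with no such gene between them. Alox12, Alox12e and Alox15 lie in a row on chromosome 11, with gaps of 60.3 and 21.5 kb. Alox8 lies 1044 kb from Alox12 beyond 58 other protein-coding genes. Alox12e, an epidermal lipoxygenase gene, measured 9.49 ± 3.69 in controls and 200.3 ± 95.9 in clones (log2 fold change 4.23 ± 0.40) and was called higher, so the 3 adjacent lipoxygenase genes did not share a direction. On the other side of Alox15, Pelp1 measured 4119 ± 713 in controls and 2928 ± 220.0 in clones (log2 fold change -0.48 ± 0.14) and Arrb2 1348 ± 298 in controls and 876 ± 62.2 in clones (log2 fold change -0.60 ± 0.16), and both were called lower. Alox8 also lies in a row of lipoxygenase genes, 14.1 kb from Alox12b, which was called higher (log2 fold change 2.65 ± 0.38), with Aloxe3, called lower (-0.69 ± 0.27), 7.87 kb beyond it. On the other side of Alox8, the guanylate cyclase gene Gucy2e measured 12.6 ± 5.29 in controls and 2060.3 ± 304 in clones (log2 fold change 7.33 ± 0.32) and Cntrob 946 ± 121 in controls and 746 ± 57.2 in clones (log2 fold change -0.34 ± 0.13), called higher and lower. March8, 0.537 kb from Alox5, measured 738 ± 6.17 in controls and 1512 ± 96.5 in clones (log2 fold change 1.03 ± 0.11) and was called higher.

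Promoter sequence is shown for Alox8 and Alox12, lipoxygenase genes of opposite direction on 1 chromosome, and for Ptgs2, the cyclooxygenase gene whose groups did not overlap. Each is the 250 bases before the start site in RefSeq GRCm38.p6, written 5′ to 3′ on the gene's strand, at chr11:69197844-69198093, minus strand, chr11:70255371-70255620, minus strand and chr1:150099781-150100030, plus strand. Capitals mark matches to the motifs searched on both strands.
Alox8: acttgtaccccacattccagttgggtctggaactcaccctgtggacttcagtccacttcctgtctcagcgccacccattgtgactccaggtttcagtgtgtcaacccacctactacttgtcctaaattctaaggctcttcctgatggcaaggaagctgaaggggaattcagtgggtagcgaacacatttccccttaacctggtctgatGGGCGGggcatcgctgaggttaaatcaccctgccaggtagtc
Alox12: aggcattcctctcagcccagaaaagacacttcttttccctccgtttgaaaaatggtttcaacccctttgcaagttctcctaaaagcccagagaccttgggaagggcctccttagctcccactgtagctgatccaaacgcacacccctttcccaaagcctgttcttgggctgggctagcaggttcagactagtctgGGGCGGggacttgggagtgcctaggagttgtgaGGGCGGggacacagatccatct
Ptgs2: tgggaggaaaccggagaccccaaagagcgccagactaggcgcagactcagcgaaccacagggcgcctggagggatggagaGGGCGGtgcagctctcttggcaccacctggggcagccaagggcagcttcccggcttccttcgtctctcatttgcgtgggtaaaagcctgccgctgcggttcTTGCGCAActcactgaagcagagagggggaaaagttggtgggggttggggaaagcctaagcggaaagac
Shares are of 32851 windows of the same length. The TATA box, TATAAA, was in 12.4% of them and the GC box, GGGCGG, in 32.7%. The E-box, CACGTG, was found in 6.02% and the ETS motif, CCGGAAG, in 6.91%. The AP-1 motif, TGANTCA, was found in 6.75% and the cyclic AMP response element, TGACGTCA, in 1.55%. The C/EBP motif, TTGCNNAA, was found in 9.56% and the STAT motif, TTCNNNGAA, in 7.02%. The capitals are GC boxes in all 3, plus 1 C/EBP match in Ptgs2, TTGCGCAA. Alox8 and Alox12 thus held the same kind of match, 1 and 2 times. A match is a description of the letters only.

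The pentamer ATTTA, the core of AU-rich elements that mark short-lived mRNAs, was counted in the longest annotated 3′ UTR of each gene. Ptgs2 held 14 copies in 2445 bases, a number that 2.76% of 13685 genes reach. Pla2g4a, Alox12 and Hpgd held 4 each, Alox5 and Alox5ap 2 each, Alox15 1, and Alox8, Ptgs1 and Ptges none. The UTRs differ in length, and per kilobase Pla2g4a came first with 9.03 copies (reached by 1.12% of genes), ahead of Ptgs2 with 5.73, while the 1 copy of Alox15 lay in 391 bases (2.56 per kilobase, 25.4%).

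Beyond the 10 genes, 96 other genes of the pathway were listed by role, and 62 could be tested. Of these, 29 (46.8%) were higher and 20 (32.3%) lower, against 35.2% and 38.3% of all genes. With no filter on low values 30 of the 75 present were higher and 28 lower, against 5712 and 6841 of all 17912 genes. The lists were chosen with earlier results of these data known, so nothing is read from these shares. Among other genes of arachidonate release, 15 of 23 could be tested, with 5 higher, 7 lower and 3 not called (median log2 fold change -0.46). Mgll, monoacylglycerol lipase, rose and measured 129 ± 45.6 in controls and 2113 ± 210.1 in clones (log2 fold change 4.07 ± 0.24, limma adjusted p = 9.2e-07). The phospholipase gene Pla2g15 fell and measured 1187 ± 117 in controls and 616 ± 5.77 in clones (log2 fold change -0.94 ± 0.12, limma adjusted p = 9.8e-05). Pla2g6 fell by a smaller step (-0.54 ± 0.17, limma adjusted p = 0.0191), a call lost without clone 5 (-0.47). Pnpla8 did not pass the test (-0.24 ± 0.13, limma adjusted p = 0.112), but did without control 2 (-0.36) and with quantile normalization (-0.46). These 4 are the tested genes of highest mean. Among those of lower mean, Pla2g10 (174 ± 35.0 in controls, no read in clones) was called lower. So were Pla2g5 (354 ± 32.9 in controls, 0.971 ± 0.996 in clones) and Pla2g1b (148 ± 87.2 in controls, 0.639 ± 0.555 in clones). Pla2g4b (-1.20 ± 0.29) and Pla2g12a (-0.58 ± 0.13) were called lower too. Pla2g4e (13.7 ± 5.13 in controls, 214 ± 5.41 in clones) was called higher. So were Dagla (3.26 ± 0.23), Pla2g2e (1.94 ± 0.40) and Daglb (1.76 ± 0.15).

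Among genes that supply arachidonate or return it to membranes, 9 of 9 could be tested, with 3 higher, 6 lower and 0 not called (median log2 fold change -1.13). Acsl4, which activates arachidonate with coenzyme A, rose and measured 1039 ± 161 in controls and 10853 ± 969.8 in clones (log2 fold change 3.39 ± 0.14, limma adjusted p = 1.3e-07). Its relative Acsl3 fell and measured 3541 ± 307 in controls and 579.7 ± 26.9 in clones (log2 fold change -2.61 ± 0.11, limma adjusted p = 1.6e-07). Lpcat3, which inserts arachidonate into phospholipids, rose (0.98 ± 0.10, limma adjusted p = 2.9e-05), and the elongase gene Elovl5 fell (-0.72 ± 0.12, limma adjusted p = 0.00051).

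The 3 other lipoxygenase genes divided as well. Alox12e rose (4.23 ± 0.40, limma adjusted p = 1.5e-05), and so did Alox12b, needed for the skin barrier, which measured 29.5 ± 14.5 in controls and 187 ± 67.2 in clones (log2 fold change 2.65 ± 0.38, limma adjusted p = 0.00024). Aloxe3 fell (-0.69 ± 0.27, limma adjusted p = 0.0469), but the call was lost without control 2 (-0.65), control 3 (-0.47), clone 5 (-0.75), clone 6 (-0.64) or clone 7 (-0.68), and with quantile normalization (-0.12). All 3 stayed far below Alox15 in the clones.

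Of the genes listed under leukotriene conversion, 8 of 9 could be tested, with 6 higher, 1 lower and 1 not called (median log2 fold change 2.29). The microsomal glutathione transferase gene Mgst1 rose and measured 77.4 ± 19.8 in controls and 3452 ± 543 in clones (log2 fold change 5.48 ± 0.21, limma adjusted p = 1.2e-07). Its relatives Mgst2 (3.88 ± 0.25, limma adjusted p = 1.7e-06) and Mgst3 (2.07 ± 0.16, limma adjusted p = 4.2e-06) rose too. Lta4h, whose enzyme makes leukotriene B, measured 2163 ± 151 in controls and 2202 ± 165 in clones (log2 fold change 0.03 ± 0.11, limma adjusted p = 0.837) and did not pass. Among the genes of lower mean in this list, Ltc4s (3.97 ± 1.58 in controls, 33.5 ± 5.07 in clones) was called higher. Ggt1 (198 ± 26.3 in controls, 1.32 ± 0.634 in clones) was the gene called lower.

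Of the other prostanoid synthases, 6 of 9 could be tested, with 1 higher, 2 lower and 3 not called (median log2 fold change -0.41). Akr1b3 rose (1.11 ± 0.23, limma adjusted p = 0.0023) and the co-chaperone and synthase gene Ptges3 fell (-0.81 ± 0.15, limma adjusted p = 0.00105). Cbr1 (-0.15 ± 0.18, limma adjusted p = 0.475) and Ptges2 (-0.20 ± 0.19, limma adjusted p = 0.347) did not pass. The other gene called lower, Ptgis, measured 397 ± 84.4 in controls and 39.9 ± 3.38 in clones (log2 fold change -3.26 ± 0.22, limma adjusted p = 2e-06). Of the genes of prostanoid transport and inactivation, the group to which Hpgd belongs, 6 of 6 could be tested, with 4 higher, 0 lower and 2 not called (median log2 fold change 0.97). The reductase gene Zadh2 rose and measured 283 ± 48.0 in controls and 4255 ± 207 in clones (log2 fold change 3.92 ± 0.14, limma adjusted p = 8.6e-08). The export pump genes Abcc1 (1.64 ± 0.18, limma adjusted p = 4.8e-05) and Abcc4 (0.68 ± 0.10, limma adjusted p = 0.00028) rose, and Ptgr1 did not pass (0.20 ± 0.13, limma adjusted p = 0.197; 0.49 and past the threshold with chromosome centring). Hpgd thus lay opposite to the 4 genes of this list that rose.

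In the cytochrome P450 branch, 11 of 21 could be tested, with 6 higher, 2 lower and 3 not called (median log2 fold change 0.81). The epoxide hydrolase genes parted: Ephx1 rose and measured 967 ± 298 in controls and 5511 ± 45.9 in clones (log2 fold change 2.55 ± 0.19, limma adjusted p = 3.4e-06), and Ephx2 fell and measured 2289 ± 724 in controls and 25.7 ± 10.7 in clones (log2 fold change -6.44 ± 0.33, limma adjusted p = 4.6e-07). Cyp1b1 (1.62 ± 0.28, limma adjusted p = 0.00071) and Cyp4f16 (1.88 ± 0.15, limma adjusted p = 5.2e-06) rose. Of the receptors, 4 of 16 could be tested, with 2 higher, 1 lower and 1 not called (median log2 fold change 1.36). Ptger4, a receptor of prostaglandin E, rose and measured 50.8 ± 5.49 in controls and 1189.6 ± 78.3 in clones (log2 fold change 4.53 ± 0.16, limma adjusted p = 8.5e-08). Ptgfr rose (2.22 ± 0.43, limma adjusted p = 0.00137), Gpr75 fell (-3.88 ± 0.61, limma adjusted p = 0.00038) and Ptgir did not pass (0.50 ± 0.24, limma adjusted p = 0.0956). Ptgir did pass with quantile normalization (1.57), without the trended prior (0.50) and with chromosome centring (0.68).

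**Figure D4:**
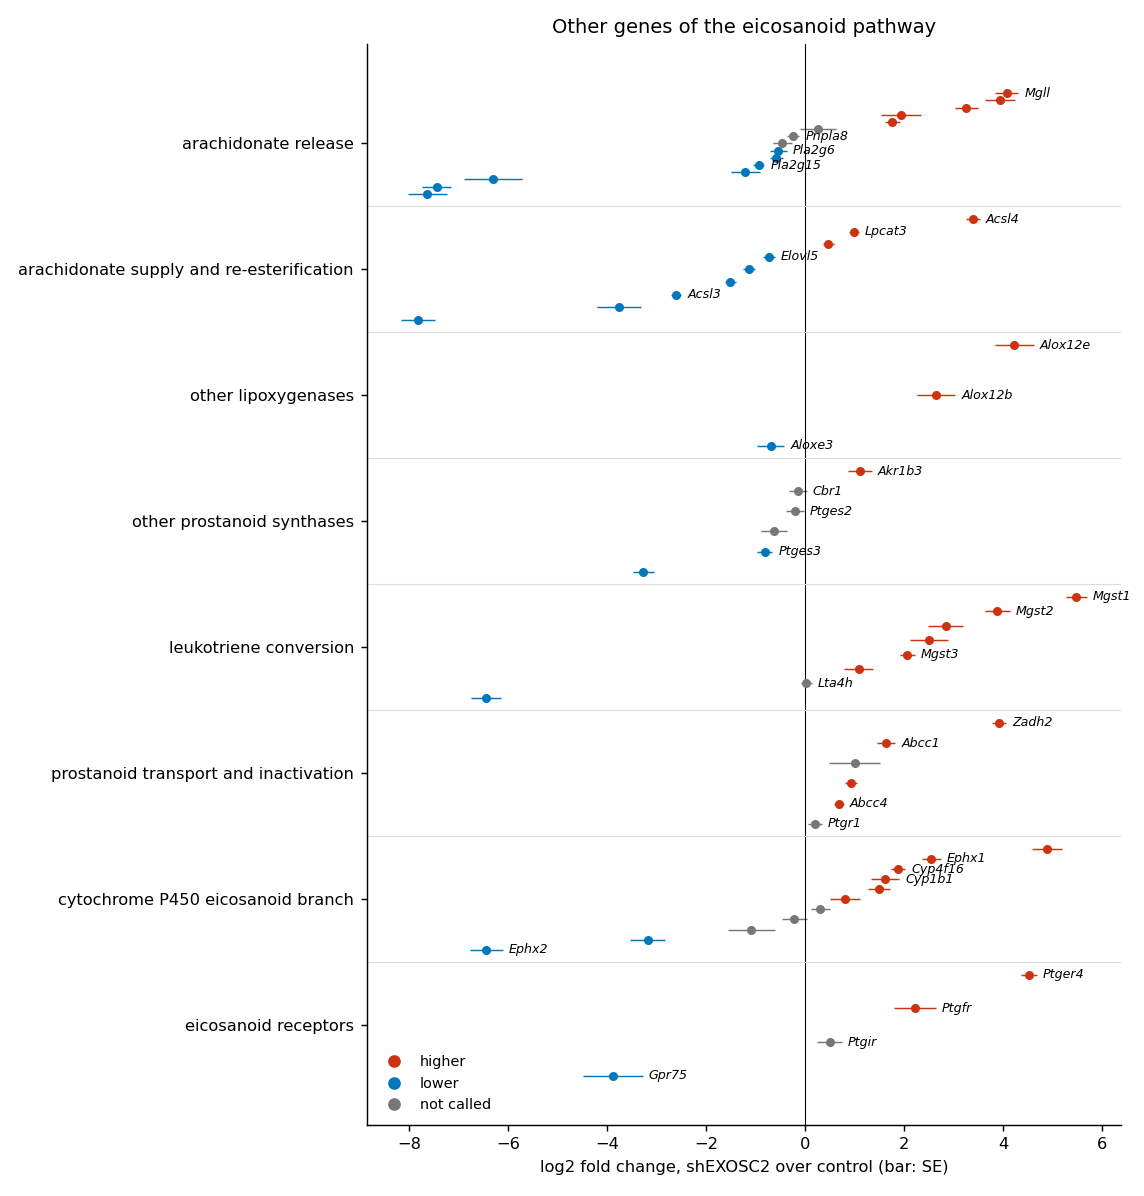
Log2 fold change (clones over controls) of the tested genes of each pathway list beside the 10 genes. Every list except transport and inactivation holds genes on both sides of 0 that passed the test.

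Cell types known for these enzymes were looked for through their markers. The summed pan-leukocyte markers were 1763, 2221 and 1816 in controls 1, 2 and 3 and 163, 194 and 165 in clones 5, 6 and 7, lower in every clone. Of the 8 listed, 7 were measured and 3 tested. Laptm5, which made up most of the control sum, measured 1593 ± 139 in controls and 6.57 ± 2.94 in clones, and Coro1a was lower too (316 ± 116 and 110.2 ± 27.5). Rac2 was higher in the clones (7.81 ± 2.03 and 34.7 ± 7.02), and the pan-leukocyte gene Ptprc, too low to test, measured 5.18 ± 4.55 and 12.4 ± 1.32. Spi1, also too low to test, measured 5.08 ± 1.27 in controls and had no read in any clone. The other untested genes were Cd53 (2.95 ± 2.44 and 5.50 ± 2.11) and Fcer1g (3.13 ± 2.94 and 4.85 ± 1.39). Of 10 macrophage markers 6 were tested, with 4 higher and none lower, and Cd68 measured 801 ± 217 in controls and 1952 ± 242 in clones. Of 8 neutrophil markers 4 were measured and 3 tested, all higher, with Ltf at 2.32 ± 3.24 in controls and 259 ± 67.9 in clones. Of 9 platelet markers 3 were tested and 1 was higher. Of 10 mast cell markers 3 were measured and only Kit was tested. Kit was lower, at 1803 ± 365 in controls and 102 ± 22.9 in clones. Of 10 tuft cell markers 4 were measured and 3 tested. Avil measured 6.48 ± 5.94 in controls and 17786 ± 1062 in clones and Dclk1 79.6 ± 26.8 and 570 ± 33.8, both higher, while Pou2f3, the transcription factor that defines tuft cells, was lower (211 ± 18.7 and 15.4 ± 3.57). Of 10 squamous keratinocyte markers 7 were measured and 6 tested, of which 5 were higher and Sbsn was not called. Krt6a, which had no read in any control, measured 3657 ± 636 in clones. Ivl, too low to test, held 10 reads in controls and 6 in clones. Trp63, Krt15 and Lor were not among the genes measured, so they could not be compared. Of 10 fibroblast markers 9 were tested and 8 were higher, with Col1a1 at 2427 ± 261 in controls and 12575 ± 4220.4 in clones. The part of such cells in the levels of the 10 genes was not tested.

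Among the genes most like Alox15 over the 6 libraries, by Euclidean distance of mean-centred log2 values, were Alox8 (0.967) and Sptssb (1.07), a gene of sphingolipid synthesis. Sptssb had no read in any control and measured 1309.6 ± 344 in clones. The distance covers the same 6 libraries whose ratio chose Alox15, so nothing is read from it.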

How the data were processed

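Per the labels, 500 ng of total RNA per library was poly(A)-selected and made into stranded TruSeq libraries with 8 PCR cycles. The deposited values are a signal, read counts per gene divided by 1 factor per library, as the file's name and header show; the submitters' processing notes name DESeq 1.22.1, HTSeq 0.5.3, STAR 2.5.0a and cutadapt 1.6 and the build mm10, without settings. Dividing by each library's smallest value gave whole reads (tolerance 0.001) for 100% of values. Main test: limma 3.58.1 (R 4.3.3) on log2(value + 1) with a trended prior, genes with a mean of at least 10, Benjamini-Hochberg over 15179 genes, threshold 0.05. edgeR 4.0.16 and DESeq2 1.42.0 were run on recovered reads as alternatives. Genes were placed with GENCODE M21. The fit was tested on simulated data. The 10 genes and all lists were chosen with earlier results of these data known. Named were the 10 genes, Exosc2, the 4 tested genes of highest mean per pathway list, up to 3 per marker list, the nearest tested neighbours, and the 3 genes most like Alox15, of which 1 is not reported here. The neighbours printed were picked from those 2 on each side after their values were seen. Csf1r, Ptprc, Spi1, Cd53, Fcer1g, Ly6g, Ivl, Ltc4s, Ggt1 and Ptgis were also named after their values were seen. So were the called genes of arachidonate release below the 4 of highest mean. Trp63, Krt15 and Lor were named as absent.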

Additional observations from a re-analysis of the deposited data

How the results depend on the processing

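No paired analysis was possible because controls 1, 2 and 3 and clones 5, 6 and 7 share no replicate number. With a mean of at least 50 required, 1 of the 10 genes was called lower instead of 3, since Alox5 and Hpgd were then not tested. With 1 library left out, 4 of the 10 genes were called higher and 3 lower each time. The ratio in these libraries chose the 10 genes, so nothing is read from that. In the same fits 28 to 31 other pathway genes were higher and 18 to 21 lower, and Exosc2 lay between -1.25 and -1.08. All genes numbered 4829 to 5529 higher and 5314 to 5962 lower. On recovered reads edgeR called 5190 higher and 5960 lower and DESeq2 5222 and 5910. The log2 fold change of Lta4h, not called, turned to -0.16 with quantile normalization, -0.16 with chromosome centring and -0.00078 with edgeR, and ranged from -0.0322 to 0.0734 with 1 library left out. That of Cbr1, not called, ranged from -0.331 to 0.020. Quantile normalization gave Alox5 -1.68, Alox12 -3.30 and Hpgd -2.88, nearer to 0, and Alox8 12.48, Alox5ap 3.63 and Alox15 11.01, farther from 0. A pseudocount of 5 gave Alox5 -2.40, Alox12 -3.68, Hpgd -3.27 and Alox8 10.50. On recovered reads the lower genes moved farther from 0. There edgeR gave Alox5 -3.61, Alox12 -4.85 and Hpgd -4.86, and DESeq2 gave Alox5 -3.65, Alox12 -4.89 and Hpgd -4.93. Why the log2 fold changes shifted between settings was not tested. With no filter on low values 30 other pathway genes were higher and 28 lower. Those counts cover all 75 genes present, whereas the 29 higher and 20 lower of the main fit cover the 62 that passed the filter. Genes at a few reads, such as Alox8 in controls and Hpgd in clones, have ratios limited by counting.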
